A study of Mus musculus with 2 samples.

Results

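The Foxd1, Sall3 and Lbx2 mesenchyme is a class of connective tissue cells in the embryonic genital tubercle, from which penis and clitoris develop. Its 1215 cells, 532 male and 683 female, were chosen from 25346 kept barcodes by the counts of 6 genes: Foxd1, Sall3, Lbx2, Lmcd1, Col8a1 and Epha3. A barcode was kept with at least 4000 unique molecular identifiers (UMIs, each 1 captured RNA molecule), at least 500 genes, at most 10% mitochondrial UMIs and no UMI of Epcam, Cdh5, Sox10 or Ptprc, which mark epithelium, endothelium, glia and immune cells. Members had at least 1 UMI in 4 or more of the 6 genes. The reference, 20323 barcodes, had a UMI in at most 1 of them, and the 3808 barcodes with 2 or 3 belonged to neither.

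The data were droplet single-cell RNA counts of wild-type C57BL/6 mouse tubercles at embryonic day 14.5. Tissue of 3 embryos per sex, taken from 2 litters, was pooled, so that there was 1 male and 1 female library and no replicate of either sex. No test was made. In summed counts, fewer cells with a gene and less RNA per cell cannot be told apart. Each interval below is a 95% interval that covers counting error alone, and differences between embryos cannot be told apart from differences between libraries.

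The mesenchyme of the tubercle grows around an epithelial urethral plate, and signals from that plate and from the surface, among them Hedgehog, Wnt, FGF and BMP proteins, pattern it. Regions of this mesenchyme are told from each other by transcription factors, such as the Msx and Dlx homeobox proteins of the distal tip. Foxd1 is a forkhead factor best known from kidney stroma, Sall3 a spalt-type zinc finger factor and Lbx2 a ladybird-type homeobox factor. Lmcd1 encodes a LIM domain protein that acts on transcription, Col8a1 a chain of the short-chain collagen VIII and Epha3 an Eph receptor for membrane-bound ephrins.

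In the male library 4.36% of kept barcodes were members (interval 4.01 to 4.74%), and in the female library 5.19% (4.82 to 5.59%). This share depended on the depth of the cells and on the rule. With at least 8000 UMIs it was 10.1% and 11.3%, and when each cell was thinned to 4000 UMIs before the rule was applied it was 1.25% in both libraries. Members were the deeper cells, with a median of 8883 male and 9560 female UMIs against 5622 and 5866.5 in the reference. Thinned to 4000 UMIs, they held a median of 1812 and 1852 genes against 1782 and 1821. Barcodes above 15000 UMIs, where droplets with more than 1 cell are most likely, made up 14.3% and 21.2% of members and 2.23% and 4.02% of the reference. No doublet caller was run. The median mitochondrial share was 6.51% and 6.50% in members and 6.63% and 6.62% in the reference. Of the kept barcodes 47 occurred in both libraries, 34 of them in the reference and none among members.

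**Figure D1:**
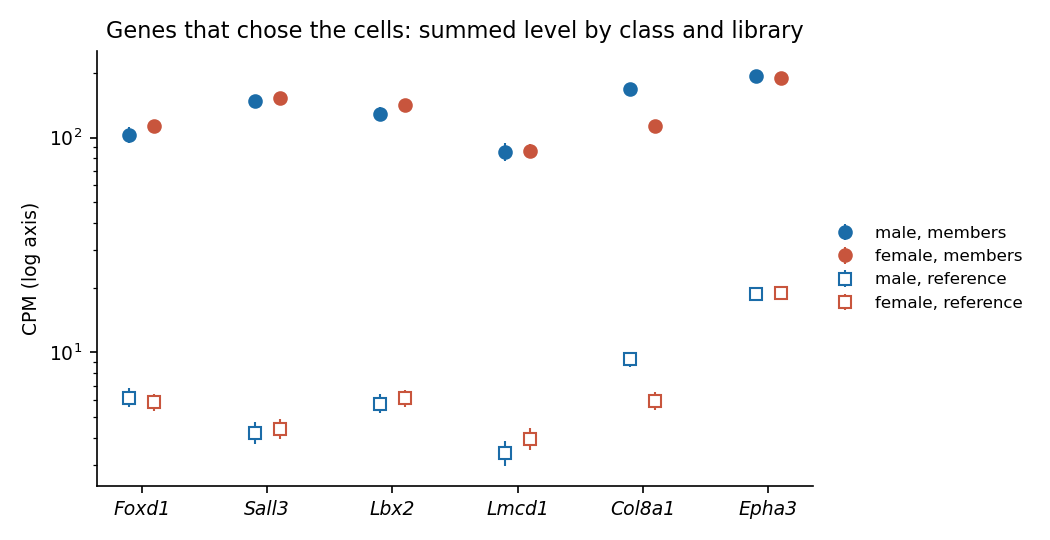
Summed level of the 6 genes that chose the cells, in counts per 1000000 UMIs (CPM) on a log axis, for members (filled circles) and reference (open squares) of each library, with 95% counting intervals. Members lie above the reference for each gene because of the rule, and Col8a1 is the gene whose male and female levels stand farthest apart.

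The following levels were selected on and describe the choice of cells. They are UMIs summed over a class, per 1000000 UMIs of that class (CPM). Foxd1 (mm10 chromosome 13, 98354242 to 98359305) was at 103 CPM in male and 113 CPM in female members, and at 6.17 and 5.86 CPM in the reference. Sall3 was at 147 and 152 CPM against 4.24 and 4.41 CPM, and Lbx2 (chromosome 6, 83086367 to 83088243) at 129 and 141 CPM against 5.77 and 6.11 CPM. Lmcd1 (chromosome 6, 112273758 to 112330425) was at 85.7 and 86.7 CPM in members and at 3.40 and 3.97 CPM in the reference. Epha3 (chromosome 16, 63543534 to 63864175) was at 193 and 189 CPM in members and at 18.6 and 19.0 CPM in the reference. Col8a1 (chromosome 16, 57624258 to 57754737) was at 169 CPM in male and 113 CPM in female members, and at 9.29 and 5.96 CPM in the reference. Of the 6, Col8a1 alone had a male over female ratio whose interval left out 0, in members (log2 0.57, interval 0.44 to 0.71) and in the reference (0.64, interval 0.46 to 0.82).

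Each of the 6 genes was also read in cells chosen by the other 5 alone. Sall3 was seen, after thinning to 4000 UMIs, in 40.2% of male and 41.4% of female cells with 4 or more of the other 5 genes, and in 3.91% and 4.05% of cells with at most 1. The shares for Epha3 were 48.5% and 44.0% against 10.0% and 10.1%. For Lbx2 they were 27.8% and 34.3% against 4.94% and 5.17%, and for Foxd1 22.3% and 24.6% against 4.17% and 4.43%. Lmcd1 was seen in 15.4% and 17% against 2.76% and 3.09%. Col8a1 was seen in 33.3% and 23.4% against 5.07% and 3.75%. Before thinning the Sall3 shares were 67.2% and 72.0% against 5.63% and 6.15%, at median depths of 9249 and 10908 against 5650 and 5905 UMIs. These shares describe genes that were picked together from these data and support nothing further.

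Barcodes of other cell types also passed the 4-gene limit, beside the 4.36% and 5.19% of kept barcodes. Of barcodes with at least 2 UMIs of the endothelial cadherin gene Cdh5, 1 of 167 male and 2 of 112 female had 4 or more rule genes, at median depths of 14871 and 12895 UMIs. Of those with at least 2 UMIs of the epithelial gene Epcam, 4 of 161 (2.48%, interval 0.681 to 6.24%) and 4 of 115 (3.48%, 0.956 to 8.67%) did. These classes were outside the kept barcodes.

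The rule genes that were seen differed from member to member. Where a rule gene was seen in members, its median was between 1 and 2 UMIs. A gene that was not seen is therefore not shown to be absent, and differences between cells were not tested. Sall3, Lbx2, Col8a1 and Epha3 without the other rule genes was the commonest set in the male library, in 83 members (15.6%). Foxd1, Sall3, Lbx2 and Epha3 was the commonest in the female library, in 77 members (11.3%). All 6 genes were seen in 20 male and 40 female barcodes. Just inside the limit lay 349 male and 440 female members with 4 rule genes, and just outside it 696 and 770 barcodes with 3.

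Members carried general mesenchyme genes. The collagen gene Col3a1 was at 587 and 534 CPM, and Twist1, a mesenchymal bHLH factor, at 855 and 895 CPM. The growth factor receptor gene Pdgfra was at 196 and 173 CPM against 167 and 155 CPM in the reference. Of the 10 listed mesenchyme markers, 8 were below the reference in both libraries and 2 above, with log2 medians of -0.31 and -0.34. Of all 11894 tested genes 4183 were below it in both. The 10 markers summed to 3766 and 3593 CPM in members, against 4582 and 4574 CPM in the reference. Only the proteoglycan genes Dcn and Lum among them differed by 2-fold or more in both libraries, and both were lower in members. Markers of cell types that the rule gates out were low. The 7 immune genes summed to 3.15 and 0.762 CPM, against 24.4 and 10.3 CPM in the reference. The 7 endothelial genes summed to 2.78 and 2.16 CPM, against 3.57 and 2.77 CPM, and the 9 epithelial genes to 11.7 and 5.20 CPM, against 24.7 and 17.8 CPM. Epcam, Cdh5, Sox10 and Ptprc were at 0 by the rule. The 8 listed erythroid genes summed to 2828 and 3192 CPM in members, against 8351 and 13781 CPM in the reference. Barcodes with over 1% haemoglobin UMIs numbered 3 and 7 among members (0.564% and 1.02%) and 140 and 247 in the reference (1.42% and 2.36%).

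Relative to the reference, 92 of 11894 genes (0.773%) were at least 2-fold higher in members of both libraries and 338 (2.84%) at least 2-fold lower. Every count of genes called higher or lower within a list below is to be read beside these 2 shares. A gene entered this count with 100 or more UMIs over members and reference in each library, and the 6 rule genes and the 4 excluded markers were left out. The reference held about 10 times as many UMIs as the members, so that a gene at this minimum could be called lower on a handful of member UMIs. With a minimum of 500 UMIs, 48 genes were higher and 166 lower. The median of all genes lay at 0.00 and 0.01 on the log2 scale, and the central 90% of genes between -0.98 and 0.46 (male) and between -0.85 and 0.44 (female). The male library alone gave 127 higher genes and the female library 141, of which the shared 92 were 72.4% and 65.2%.

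**Figure D2:**
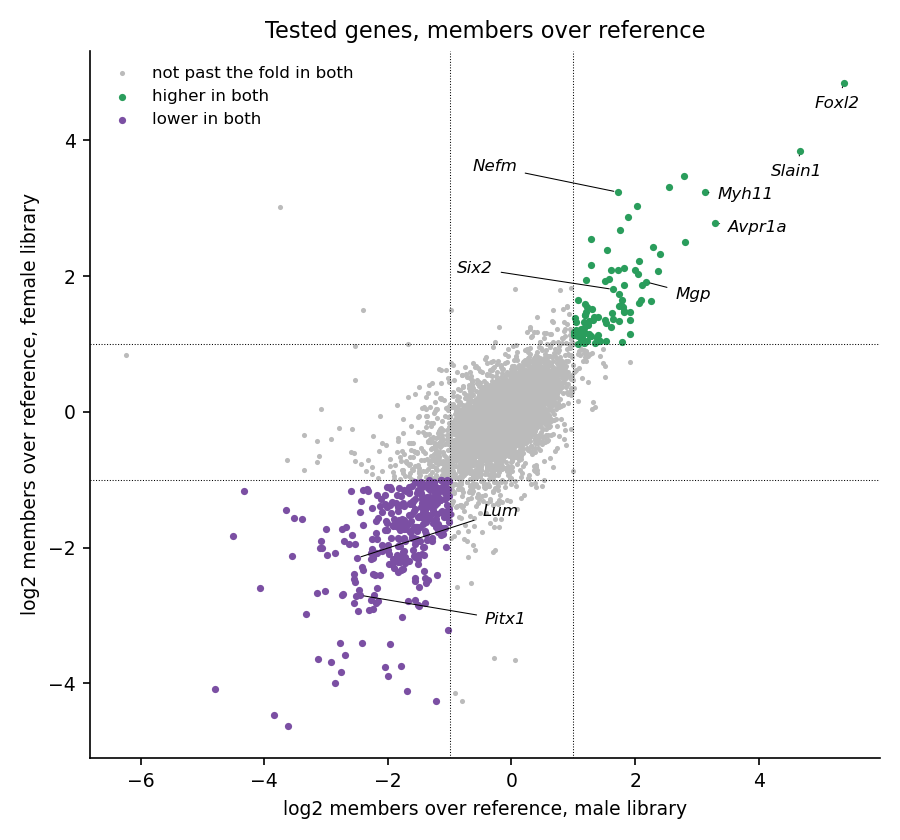
Each point is a gene with at least 100 UMIs per library, placed by its log2 ratio of members over reference in the male (x axis) and female library (y axis), with dotted lines at 2-fold. Foxl2, Slain1, Myh11 and Avpr1a lie at the upper right, and Pitx1 and Lum at the lower left.

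Among genes of at least 20 CPM in members, the ratio was highest for Slain1. Slain1 (chromosome 14, 103650228 to 103704907), which encodes a microtubule plus-end protein, was at 50 CPM in male and 27.0 CPM in female members, and at 1.97 and 1.89 CPM in the reference. The log2 ratio was 4.67 (interval 4.36 to 4.98) and 3.84 (3.53 to 4.16). After thinning, a Slain1 UMI was seen in 18.8% of male and 9.66% of female members, in 0.772% and 0.764% of the reference, and in 0% and 0.893% of the endothelial barcodes. Before thinning the member shares were 29.3% and 19.9% and the reference shares 1.17% and 1.27%. Both members' levels lay far above both reference levels, and the male level above the female.

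Avpr1a (chromosome 10, 122448499 to 122453452), the V1a receptor of vasopressin, was at 35.6 and 28.6 CPM against 3.61 and 4.16 CPM (log2 3.30 and 2.78). Slc26a7, an anion exchanger gene, was at 53.0 and 29.2 CPM against 9.96 and 5.79 CPM (log2 2.41 and 2.33). Slc1a3, a glutamate transporter gene, was at 53.3 and 59.7 CPM against 11.0 and 11.0 CPM (log2 2.28 and 2.43). Members lay above the reference for these 3 membrane protein genes in both libraries, and the Slc26a7 level was higher in the male library in members and reference alike.

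Myh11 (chromosome 16, 14194535 to 14291372), the smooth muscle myosin heavy chain, was at 30.7 and 27.7 CPM in members and at 3.52 and 2.94 CPM in the reference (log2 3.13 and 3.23). The other 5 smooth muscle genes were not called. Acta2 was at 17 and 22.5 CPM in members and at 75.1 and 33.5 CPM in the reference. Tagln was at 17.6 and 12.3 CPM against 46.3 and 18.7 CPM. Des, which encodes desmin, was at 5.74 and 10.4 CPM against 5.96 and 5.88 CPM (log2 -0.05 and 0.82). Actg2 and Cnn1 had at most 0.556 CPM in members. Of the 6 smooth muscle genes 4 were tested, and Myh11 alone was called, as higher. Barcodes with 5 or more UMIs of these genes made up 0.940% of male and 2.49% of female members, and 2.23% and 0.964% of the reference. Nexn, which encodes the actin-binding protein nexilin, was at 154 and 120 CPM against 36.0 and 38.3 CPM (log2 2.09 and 1.65).

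Genes of the matrix were split. Mgp, an inhibitor of calcification, was at 384 and 239 CPM against 85.0 and 63.3 CPM (log2 2.18 and 1.92). Tnc, which encodes tenascin C, was at 159 and 136 CPM against 47.9 and 40.7 CPM (log2 1.74 and 1.74). The basement membrane collagen genes Col4a1 (log2 1.42 and 1.05) and Col4a2 (1.26 and 1.33) and the secreted protein gene Cthrc1 (1.22 and 1.54) were also higher. Lum was at 15.9 and 14.9 CPM against 89.8 and 66.0 CPM (log2 -2.50 and -2.15), and Dcn at 59.4 and 50.1 CPM against 161 and 140 CPM. Of 22 tested proteoglycan and matricellular genes, 2 were higher and 3 lower. Of 18 tested non-fibrillar collagen genes, 2 were higher and 4 lower, and of 9 fibrillar collagen genes none passed 2-fold in both libraries.

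The remaining genes among the 15 highest were Vstm2b, Nefl, Dubr, Creb5, Tmem30b, Nefm and Six2. Nefl and Nefm, the light and medium neurofilament chains, overlap on opposite strands of chromosome 14, so that their separate values are uncertain. Nefm was at 71.1 CPM in male and 163 CPM in female members, against 21.6 and 17.2 CPM in the reference. Nefl was at 75.7 and 116 CPM against 18.6 and 14.1 CPM. In barcodes with 2 or 3 rule genes Nefm was at 84.0 and 107 CPM and Nefl at 77.7 and 79.5 CPM. In the male library members thus lay no higher than these barcodes for either gene. The transcription factor gene Creb5 was at 203 and 246 CPM against 57.6 and 67.2 CPM (log2 1.81 and 1.88).

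Some transcription factor genes were called against the reference, in both directions. The forkhead factor gene Foxl2 (chromosome 9, 98955288 to 98958543), known for its role in the ovary and eyelid, was at 19.6 CPM in male and 10.8 CPM in female members, against 0.472 and 0.374 CPM in the reference. Its log2 ratios, 5.38 and 4.85, lay above that of Slain1, but its level stayed under the 20 CPM asked of the leading genes. After thinning, 8.27% of male and 3.95% of female members showed a Foxl2 UMI, against 0.183% and 0.181% of the reference and 0% of endothelial barcodes in both libraries. Before thinning the shares were 15% and 9.66% against 0.284% and 0.267%. Of 12 tested forkhead genes 2 were called, Foxl2 and Foxf1, both higher, and the Foxf1 call ended under several alternatives given below. Foxf1, a mesenchymal target of Hedgehog signals, was at 80.6 and 66.6 CPM against 31.0 and 31.4 CPM. Foxq1 was at 151 and 109 CPM against 53.9 and 57.3 CPM (log2 1.49 and 0.93), and Foxf2 at 0.86 and 0.55.

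Proteins of the Six2 and Eya1 families work together in muscle, kidney and sense organ precursors. Six2 (chromosome 17, 85684277 to 85688274) was at 79.3 and 86.5 CPM in members and at 25.3 and 24.7 CPM in the reference (log2 1.65 and 1.80). The cofactor gene Eya1 was at 89.1 and 93.9 CPM against 37.6 and 38.5 CPM. Both were called higher, and none of the 8 tested genes of these families was called lower. Six4 was at log2 0.89 and 0.92, and the 8 genes had medians of 0.62 and 0.81.

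The 12 paired-type and related homeobox genes held calls in both directions. Meis1 (207 and 256 CPM against 94.8 and 110 CPM) and Meis2 (339 and 321 CPM against 146 and 155 CPM), partners of Hox proteins, were the higher ones. Pitx1, a hindlimb and ventral body factor, was at 28.2 and 21.1 CPM against 154 and 137 CPM (log2 -2.45 and -2.70). Alx4 was at log2 -1.95 and -1.86 and Alx1 at -1.30 and -1.28.

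Among the spalt genes outside the rule, Sall1 was at 81.5 and 102 CPM against 35.5 and 34.1 CPM (log2 1.20 and 1.59). Sall2 was at -0.07 and 0.06 and Sall4 at -0.08 and 0.14. Of 9 tested posterior HoxA and HoxD genes 1 was called, Hoxa11, at 26.3 and 28.6 CPM against 10.6 and 10.0 CPM. Hoxa13, which the tubercle needs for its outgrowth, was at 106 and 97.5 CPM against 83.8 and 78.8 CPM, and Hoxd13 at log2 -0.33 and -0.41. Of 13 tested HoxB, HoxC and anterior Hox genes 1 was called, Hoxc10, at 88.2 and 99.1 CPM against 35.3 and 38.9 CPM. The T-box gene Tbx4 was lower (log2 -1.37 and -1.30), while Tbx3 (-0.10 and -0.06) and the LIM homeobox gene Isl1 (-0.19 and -0.25) were near the reference.

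**Figure D3:**
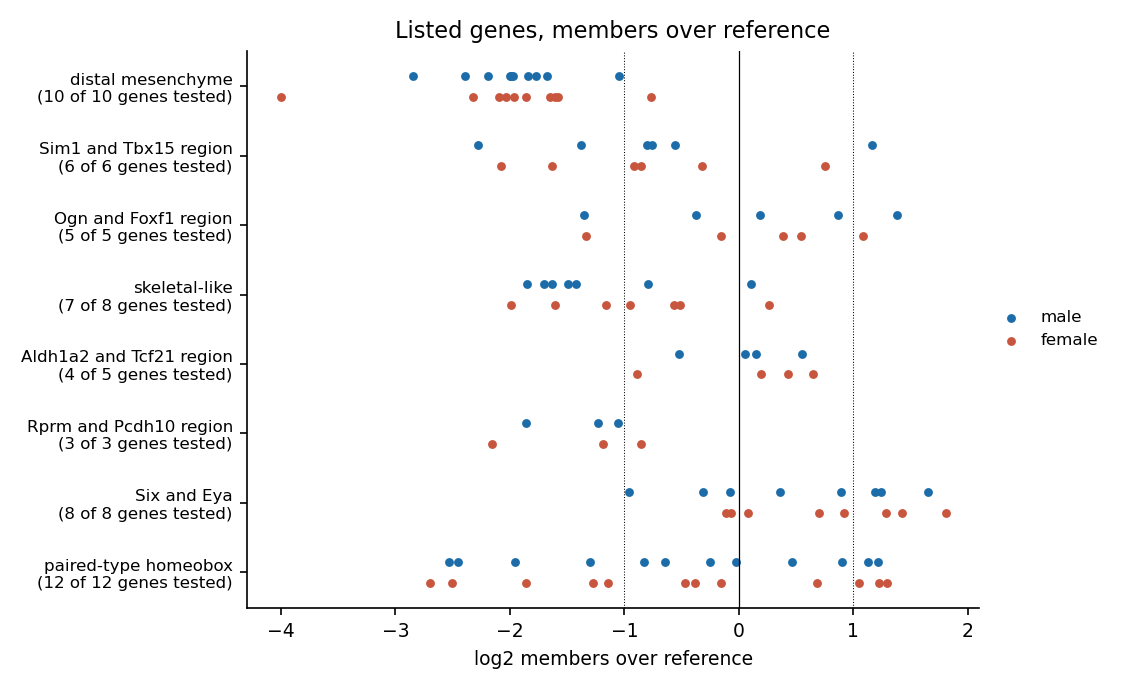
Log2 ratio of members over reference for the tested genes of 8 lists, male library in blue and female in red, with dotted lines at 2-fold. The distal mesenchyme genes lie left of 0, and genes of the Six2 and Eya1 families reach past 2-fold on the right.

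Genes of the distal mesenchyme were low in members. Of the 10 listed genes, 9 were called lower and none higher, beside 2.84% lower and 0.773% higher of all tested genes. Their medians were -1.98 and -1.91. Msx1 was at 118 and 129 CPM against 402 and 387 CPM (log2 -1.77 and -1.58), and Msx2 at 37.6 and 31.9 CPM against 149 and 124 CPM. Sp9, a zinc finger factor, was at 10.0 and 8.25 CPM against 52.6 and 41.3 CPM, and Dlx5 at 26.5 and 22.7 CPM against 94.9 and 82.4 CPM. Wnt5a, a ligand of outgrowth, was at 176 and 222 CPM against 364 and 377 CPM (log2 -1.04 and -0.77) and was not called. Low levels of Msx1 were still common, since 22.6% of male and 23.4% of female members had a UMI after thinning (36.5% and 37.5% before). The thinned shares were 49.7% and 49.0% in the reference and 12% and 12.5% in endothelial barcodes.

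The other regional lists gave weaker contrasts. Of 7 tested cartilage and tendon progenitor genes 3 were lower, Sox9 (log2 -1.70 and -1.16), Sox6 and Runx2. Pcdh10 (-1.86 and -2.15) and Spock3 (-1.23 and -1.19) were lower, and Rprm (-1.06 and -0.85) was not called. Of these 3 genes 1 was called lower with at least 8000 UMIs, and 3 with at most 15000. Sim1 (4.63 and 9.39 CPM against 22.4 and 39.6 CPM) and Tbx15 were lower, while the BMP antagonist gene Grem1 of the same list was at 40.0 and 57.3 CPM against 17.9 and 34.1 CPM (log2 1.16 and 0.75). Of the 6 genes of that list 1 was called lower with 3 or more rule genes and with the rule without Col8a1, and 3 with 5 or more. Of the 5 genes listed for the Ogn and Foxf1 region, Foxf1 was higher and Rspo3 (log2 -1.35 and -1.33) lower. The Foxf1 call ended with at least 2000 UMIs, with 5 or more rule genes and with the rule on thinned counts. It also ended without haemoglobin and muscle barcodes, against all other kept barcodes and with the rule without Col8a1. The Rspo3 call ended with 3 or more rule genes and with the rule without Col8a1. With at most 5% mitochondrial UMIs 3 of these genes were tested and none was called. None of 4 tested genes of the Aldh1a2 and Tcf21 region was called. The lists were drawn up from earlier results of these libraries and are no independent evidence of a direction.

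The other genes among the 15 lowest, of at least 20 CPM in the reference, were Gm43376, Tac1, Dsc3, Lin7a, Fgf9, Pdgfrl, Gata6, Ntm, Mecom and Cxcl14. Cxcl14, a chemokine, was at 105 and 80.5 CPM against 413 and 380 CPM (log2 -1.98 and -2.24). Tac1, the precursor of substance P, was at 21.1 and 15.2 CPM against 120 and 100.3 CPM. Fgf9, a growth factor, was at 4.44 and 5.08 CPM against 23.9 and 24.9 CPM. Gm43376 is an antisense RNA gene, and its value is uncertain because the use of strand in the counting is not given in the sources used here. Gata6 (log2 -2.12 and -2.41) and Gata3 (-1.58 and -1.86) were both lower.

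In the FGF pathway, 5 of 10 feedback and response genes were lower and none higher, beside 2.84% lower and 0.773% higher of all tested genes. The 5 lower genes are given next. These were Etv1 (log2 -2.01 and -1.64), Etv4 (-2.28 and -2.77) and Etv5 (-2.12 and -1.38), transcription factors induced by FGF, and the feedback inhibitors Spry1 and Spry4. Their levels were low, with Etv4 at 2.59 and 1.90 CPM in members and 12.6 and 13.0 CPM in the reference. The receptor genes Fgfr1 (0.18 and 0.13) and Fgfr2 (0.54 and 0.57) were not called. Of 7 tested Notch pathway genes 3 were lower, all target genes, beside the same 2.84% of all tested genes. Hes1 was at 44.8 and 42.0 CPM against 124 and 111 CPM, and Hey1 and Hey2 were at log2 -1.88 and -1.68 and at -1.86 and -2.11.

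Ptch1, the Hedgehog receptor and target, was at 292 and 264 CPM against 129 and 141 CPM (log2 1.18 and 0.91), which passed 2-fold in the male library and not in the female. Gli1, another target, was at 0.19 and 0.27, and none of 12 tested Hedgehog genes was called. Of the Wnt antagonists, Sfrp2 was at 369 and 379 CPM against 183 and 172 CPM and was called higher, which ended with 3 or more rule genes, against all other kept barcodes and with the rule without Col8a1, and Sostdc1 (-1.79 and -2.15) lower. Frzb was at 0.99 and 0.70 and Dkk2 at 0.96 and 0.36. Of 12 tested Wnt antagonist and R-spondin genes 1 was called higher and 3 lower. In both libraries 3 of the 12 were above 0 and 7 below 0, with medians of -0.56 and -0.51. Among 14 tested Wnt response genes, Axin2 lay at 0.28 and 0.00, and Rnf43 alone was called, as lower. Of 18 tested BMP ligand, receptor and antagonist genes 4 were lower, Bambi (131 and 132 CPM against 315 and 268 CPM), Bmp5, Gdf6 and Bmpr1b. The 8 BMP response genes were below 0 in both libraries, beside 4183 of all 11894 tested genes, and the 2 called among them were Msx1 and Msx2. With at most 5% mitochondrial UMIs 6 of them were tested, of which 3 were below 0 and 3 above 0 in both libraries.

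Of the Eph receptors other than Epha3, 2 of 8 tested genes were called, both higher, and the medians were -0.11 and 0.02. Epha4 was at 415 and 411 CPM against 163 and 203 CPM (log2 1.35 and 1.02), and Epha7 at 162 and 181 CPM against 72.9 and 82.1 CPM (1.15 and 1.14). Epha5 was at -0.74 and -0.32. No receptor was called higher with 3 or more rule genes, against all other kept barcodes or with the rule without Col8a1. None of 8 ephrin genes was called, with Efnb2 at 0.96 and 0.48. Cdh6, a type II cadherin, was at 30.4 and 30.8 CPM against 11.5 and 14.8 CPM and was the 1 of 7 tested adhesion genes called, a call that ended under the same 3 alternatives. Ldb2, which bridges LIM domain proteins, was higher (log2 1.34 and 1.40) among 10 tested LIM domain and partner genes, and Lmo2 and Lhx9 were lower.

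Srd5a2, which makes dihydrotestosterone from testosterone, was at 4.26 and 5.46 CPM against 2.48 and 3.13 CPM (0.78 and 0.80). It did not pass 2-fold, and none of 7 tested steroid receptor and enzyme genes was called.

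All 15 genes of G2 and mitosis were above the reference in both libraries, beside 4487 of all 11894 tested genes. Their log2 medians were 0.56 and 0.39, and none passed 2-fold. Top2a was at 648 and 744 CPM against 482 and 575 CPM. The 15 S phase genes had medians of 0.02 and 0.01. Depth moved with this contrast, and its part in the result was not tested. With at least 8000 UMIs in every barcode the G2 and mitosis medians were 0.32 and 0.22, and with at most 15000 UMIs 0.51 and 0.30. With at most 5% mitochondrial UMIs 9 of the 15 genes were above the reference in both libraries, and the medians were 0.80 and 0.13.

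Levels of Slain1 and Msx1 moved with the number of rule genes detected. Slain1 was at 1.47 and 1.46 CPM with no rule gene, 14.3 and 8.09 CPM with 2, 24.9 and 15 CPM with 3, 40.4 and 26.0 CPM with 4 and 65.0 and 26.6 CPM with 5. Msx1 was at 448 and 418 CPM with no rule gene, 150 and 195 CPM with 3, 133 and 149 CPM with 4 and 92.1 and 104 CPM with 5. Barcodes just outside the limit thus lay between those with no rule gene and those with 4 for both genes. Not every gene did so, since male Nefm was at 84.0 CPM with 2 or 3 rule genes and at 71.1 CPM in members. Median depth also rose, from 5562 male and 5712 female UMIs with no rule gene to 9841 and 11219 with 5. The part of depth in these levels was not tested.

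**Figure D4:**
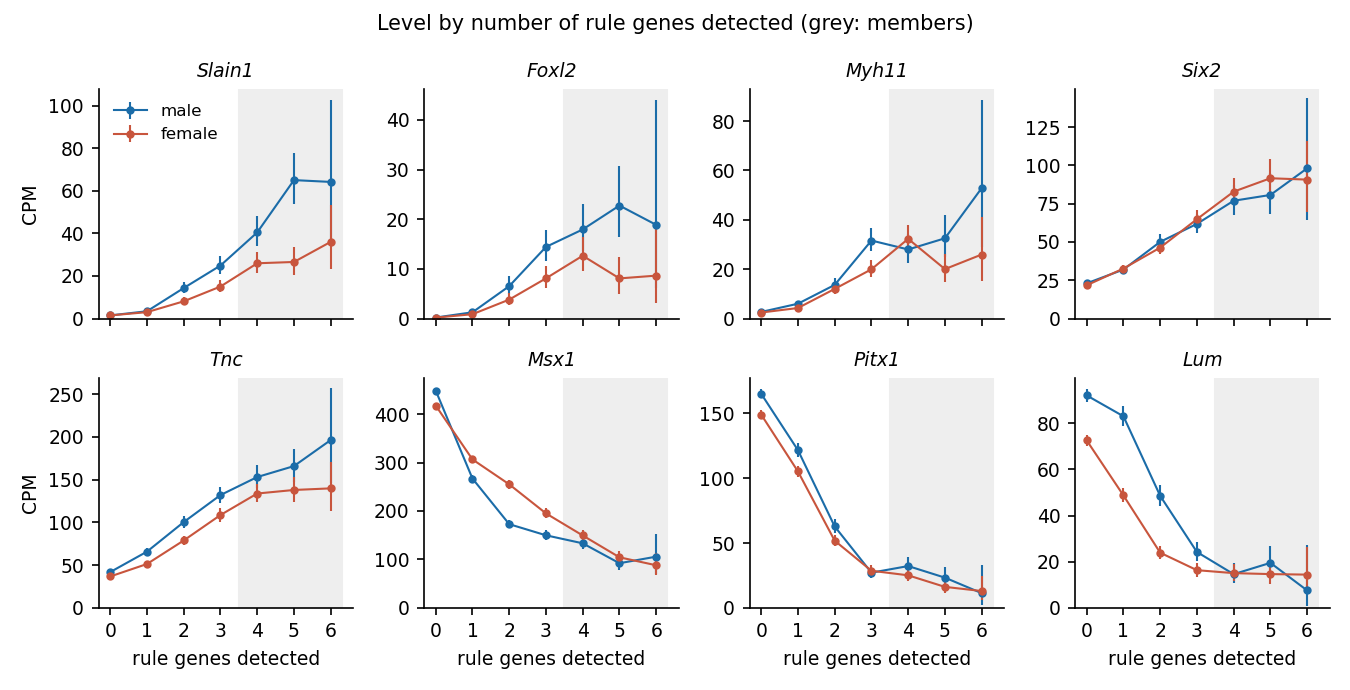
Level in counts per 1000000 UMIs (CPM) of 8 genes against the number of rule genes detected, with 95% counting intervals, male in blue and female in red, and members on grey. Slain1, Foxl2, Myh11, Six2 and Tnc are higher, and Msx1, Pitx1 and Lum lower, in members than in barcodes with no rule gene.

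Members differed among themselves by rule gene. The 277 male and 385 female members with an Lmcd1 UMI had Nefm at 108 and 216 CPM, against 30.6 and 83.3 CPM in the 255 and 298 without (log2 1.82 and 1.37). Ccnd1, the cyclin D1 gene, was at 234 and 338 CPM with Lmcd1 and at 102 and 154 CPM without (log2 1.20 and 1.13). Slain1 (1.39 and 0.98) and Cthrc1 (0.98 and 1.14) were also higher with Lmcd1. The rule ties both splits to each other, since a member without Lmcd1 must hold 4 of the other 5 genes. Col8a1 was seen in 67.5% of male and 50.1% of female members with Lmcd1, and in 86.3% and 74.2% of those without. With a Col8a1 UMI, in 407 male and 414 female members, Nefm was at 58.3 and 90 CPM, against 119 and 278 CPM in the 125 and 269 without (log2 -1.03 and -1.63). Ccnd1 was at -0.91 and -0.92 by the same split. Nexn (log2 1.08 and 1.02), Igf1 (1.24 and 1.77) and Foxl2 (1.22 and 1.23) were higher in the members with Col8a1. By Lbx2, Nefl was higher (1.07 and 1.76) and Mgp lower (-0.74 and -0.72) where Lbx2 was seen. These splits were chosen with their values in view, and the same cells gave both the split and the level.

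Between male and female members, 72 of 8863 genes (0.812%) were higher by at least 1.5-fold in males and 125 (1.41%) in females. A gene entered with 100 or more UMIs over the members of both. Genes of the Y chromosome and of X inactivation were left out, and they separated the libraries as labelled, with Xist at 0.185 CPM in male and 1218 CPM in female members. With 500 or more UMIs 19 and 13 genes were called, and 1 library per sex leaves no replicate check.

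**Figure D5:**
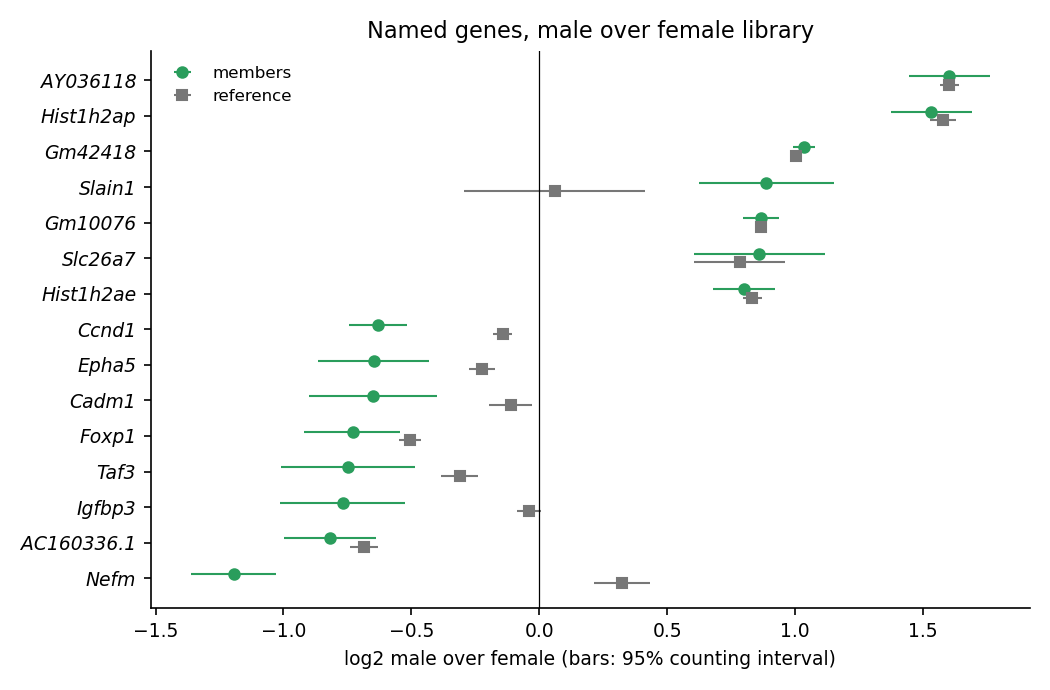
Log2 ratio of the male over the female library for 15 named genes, in members (green circles) and in the reference (grey squares), with 95% counting intervals. The male-higher genes except Slain1 have like ratios in both classes, and Nefm has opposite signs.

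The named male-higher genes other than Slain1 had similar ratios in the reference. Hist1h2ap, a histone gene with near-identical copies, was at log2 1.53 in members and 1.58 in the reference, and Slc26a7 at 0.86 and 0.78. AY036118 (1.60 and 1.60) and Gm42418 (1.03 and 1.00) overlap each other, so that both are uncertain. Gm10076 (0.87 and 0.87) and Hist1h2ae (0.80 and 0.83) belong to families with close copies. Slain1 was the exception, at 50 CPM in male and 27.0 CPM in female members (0.89, interval 0.62 to 1.15), and at 1.97 and 1.89 CPM in the reference (0.06, interval -0.30 to 0.41). In members with Lmcd1 the Slain1 levels were 71.0 and 33.7 CPM, and in members without it 27.1 and 17.1 CPM. The male level was the higher in both subsets, a split chosen with its values in view. With at most 5% mitochondrial UMIs, which left 35 male and 32 female members, the Slain1 ratio was -0.32. The part of the mix of members in the ratio was not tested.

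Nefm was at 71.1 CPM in male and 163 CPM in female members (log2 -1.19, interval -1.36 to -1.03), and had the opposite direction in the reference (0.32, interval 0.21 to 0.43). It was lower in the male library both with and without Col8a1, as given above. Of the other female-higher genes, Igfbp3, an IGF-binding protein gene, was at 36.1 and 61.4 CPM (-0.77 in members and -0.04 in the reference). Ccnd1 was at 171 and 265 CPM (-0.63 and -0.14), and the adhesion gene Cadm1 at 35.6 and 55.7 CPM (-0.65 and -0.11). Epha5 (-0.65 and -0.22), Taf3 (-0.75 and -0.31), the forkhead gene Foxp1 (-0.73 and -0.51) and the lincRNA gene AC160336.1 (-0.82 and -0.69) were also lower in the male library in both classes. The differences between these ratios were not tested. Among the leading genes of the class, Mgp (0.68 in members and 0.42 in the reference) and Tnc (0.23 and 0.23) were higher in the male library, and Six2 (-0.13) and Myh11 (0.15) had intervals that include 0.

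Markers of other cells moved with the sex comparison, and their part in it was not tested. The 8 listed skeletal muscle genes summed to 5.37 CPM in male and 61.8 CPM in female members, and 1 female barcode held 379 of these UMIs. Actc1 and Myog, which encode a muscle actin and a muscle regulatory factor, had 249 and 72 UMIs in female members and 1 and 0 in male members. The smooth muscle gene Des was higher by 1.5-fold or more in female members (log2 male over female -0.86, and 0.02 in the reference). Of 6 tested erythroid genes 5 were lower in male members and 1 higher, with a median ratio of -0.36, against -0.76 in the reference, and none passed 1.5-fold. Barcodes with 5 or more erythroid UMIs made up 32.9% of male and 52.6% of female members, and 30.2% and 50% of the reference.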

How the data were processed

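The authors deposited 1 matrix of raw UMI counts for each library, not normalized. Per the submitters' processing notes Cell Ranger 3.1 and mm10 were used. Which annotation was used is not given in the sources used here. Both matrices hold 31053 genes and uncalled barcodes, with 130105692 male and 144515562 female UMIs. Of the gene IDs 99.6% matched GENCODE M21 of the same build, which gave coordinates. Filters on barcodes are given in the report and left 12192 male and 13154 female barcodes. No clustering was done. UMIs of all barcodes in a class were added up and scaled to the class total (CPM). Ratios have exact conditional Poisson intervals and shares exact Clopper-Pearson intervals at 95%. These cover counting error alone, and UMIs of 1 cell are not independent of each other. Shares were also read after each barcode was thinned without replacement to 4000 UMIs (seed 1). A gene was called at 2-fold in both libraries, or at 1.5-fold between the sexes, with 100 or more UMIs. The ratio and its interval were run on simulated independent Poisson counts, the model that the interval assumes. That run cannot show how well the intervals hold for UMIs that cluster within cells. Tools were Python 3.11.15, numpy 2.4.6, scipy 1.17.1, pandas 2.3.3 and matplotlib 3.10.9.

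The members and gene lists were chosen with earlier results of these data known. The text names the rule genes, the 15 highest and 15 lowest genes by the ratio nearer to 0 of both libraries, among genes of at least 20 CPM in the members or the reference of both, and the 8 highest and 8 lowest male over female ratios among genes of at least 50 CPM in the higher library. Not eligible were rule genes (members over reference), excluded markers, and genes of mitochondria, haemoglobin, the Y chromosome or X inactivation. Of the lists it names members of the regional lists and up to 5 others with at least 100 UMIs, or whole families where a paragraph is about one. Genes named beyond this were chosen after their values were seen. Alternatives changed the limits on UMIs and mitochondrial UMIs, the number of rule genes, the reference, the thinning and the count minimum. Some results that these rules select are not reported here.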

Additional observations from a re-analysis of the deposited data

Results flagged for a closer look

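Nefm had opposite directions in the members and in the reference when the male library was set over the female, at -1.19 and 0.32 on the log2 scale. This difference was not tested, and 1 library of each sex gives no replicate. Without the barcode with the most Nefm UMIs in each library the ratio in members was -1.18.

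Barcodes left out of the classes because they held a UMI of Epcam, Cdh5, Sox10 or Ptprc also showed the rule genes. Of 885 such male barcodes 3.39% (interval 2.30 to 4.80%) had 4 or more, and of 788 such female barcodes 4.44% (3.11 to 6.12%). Among kept barcodes the shares were 4.36% and 5.19%.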

How the results depend on the processing

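The 30 genes named for members over reference kept their direction and stayed past 2-fold in both libraries under every alternative that gave a value. Values were missing for Myh11 where barcodes with a UMI of a muscle gene were removed, and 56 of the 60 values were available with at most 5% mitochondrial UMIs. The count of 92 higher genes was 33 with at most 5% mitochondrial UMIs, which left 35 male and 32 female members, 59 against all other kept barcodes, 145 with a minimum of 20 UMIs and 48 with 500. The count of 338 lower genes was 222 with at least 8000 UMIs, 100 with the mitochondrial limit, 542 with the rule on thinned counts, 685 with a minimum of 20 UMIs and 166 with 500. Male-higher genes, 72 in the report, numbered 32 with the mitochondrial limit, 47 with the rule on thinned counts, 395 with a minimum of 20 UMIs and 19 with 500. Female-higher genes, 125 in the report, numbered 22, 78, 488 and 13 under these alternatives in the same order, and 77 with 3 or more rule genes. With cells thinned before summing 50 and 91 genes were called by sex, of which 19 and 18 were also called in the report.

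The male and female member shares were 3.35% and 3.89% with at least 2000 UMIs, 10.1% and 11.3% with 8000, 3.86% and 4.33% with at most 15000, 10.1% and 11.0% with 3 or more rule genes, 1.50% and 1.85% with 5 or more, 1.25% and 1.25% with the rule on thinned counts, and 3.57% and 4.44% without haemoglobin and muscle barcodes. With the mitochondrial limit the female share was 3.84%. With 3 or more of the 5 rule genes other than Col8a1, an alternative chosen after seeing the data, the shares were 7.51% and 9.27%. With the mitochondrial limit of 5% the male over female ratio changed sign for Slain1 (-0.32), Nefm (1.51), Igfbp3 (0.38) and Foxp1 (1.01). The cause was not tested. No other of the 16 named ratios changed sign under any alternative. Of the 16, 12 stayed past 1.5-fold with the rule without Col8a1 and 11 with 3 or more rule genes. With the mitochondrial limit 0 of 4 tested FGF feedback genes and 1 of 4 tested Notch genes were lower. Genes near 100 UMIs and members with shallow counts limit the precision. No paired analysis was possible because each sex has 1 library and no test was made.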

Other observations

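None of 14 tested genes of hypoxia and glycolysis was called, with Ldha, a lactate dehydrogenase subunit, at log2 0.27 and 0.25. Of 14 tested retinoic acid genes 1 was called, the receptor gene Rarb, as lower, at 9.63 and 10.2 CPM against 25.7 and 26.3 CPM. Of 12 tested TGF-beta and activin genes 1 was called, Tgfb1, as lower, which ended with at least 8000 UMIs. Of 18 tested guidance genes, 12 were below 0 in both libraries, beside 4183 of all 11894 tested genes, and the medians were -0.35 and -0.30. The 3 called lower were Slit2 (-1.04 and -1.55), Nrp1 (-1.14 and -1.81) and Unc5b (-1.25 and -1.28). The Slit receptor gene Robo2 was at 312 and 345 CPM against 157 and 173 CPM, at 0.99 and 1.00. Robo2 lay at the 2-fold limit and was not called.

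Immediate early genes were lower for 2 of 15 immediate early and heat shock genes, Fosb and Junb, with Junb at 29.6 and 22.1 CPM against 60.5 and 48.4 CPM. The heat shock genes Hspa1a (-0.05 and -0.08) and Hsp90aa1 (0.08 and 0.08) were near the reference. Of 9 tested IGF genes 1 was lower, Igfbp7. Its call ended with at least 8000 UMIs, with 3 or more rule genes, against all other kept barcodes and with the rule without Col8a1. Igf1 was at 54.3 and 42.4 CPM against 79.7 and 80.1 CPM.

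Hoxc12, which had too few UMIs to be tested, was at 4.26 and 2.16 CPM in members and 0.274 and 0.267 CPM in the reference. It was singled out after its values were seen.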
